A study of Sus scrofa with 8 samples.

Results

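HK2, TKT, TALDO1 and PCK1 encode enzymes that take glucose into metabolism, run the pentose phosphate pathway and supply glycerol 3-phosphate, and their RNA levels in pig backfat are described here. The members were the rows whose gene name in the deposited table of values per pig equalled one of these names, and all 4 were found among the 458 genes of that table. The samples were dorsal subcutaneous fat of 4 purebred Alentejano (AL) pigs (replicates 44, 49, 52 and 63) and 4 purebred Bisaro (BI) pigs (replicates 25, 34, 36 and 37), all castrated males, with 1 RNA-seq library for each pig. Both breeds were kept free-range and fed commercial diets without restriction until slaughter, and the labels give a carcass weight of 150 kg for every pig. The ages of the pigs at slaughter were not used here. The comparison asks how the fat of a fat-type local breed (AL) differs in gene expression from that of a leaner one (BI), and the sources used here name no other treatment.

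Hexokinases phosphorylate glucose as it enters the cell, and HK2 is the isoform known from insulin-responsive tissues such as muscle and fat. The glucose 6-phosphate they form can enter glycolysis or the pentose phosphate pathway, whose oxidative branch makes NADPH, the reductant of fatty acid synthesis, and whose non-oxidative branch, run by transketolase (TKT) and transaldolase (TALDO1), returns pentose phosphates to glycolytic sugars. In adipocytes, which re-esterify fatty acids but have little glycerol kinase, cytosolic phosphoenolpyruvate carboxykinase (PCK1) is the regulated enzyme of glyceroneogenesis, the route from pyruvate to the glycerol 3-phosphate of triglycerides. PCK1 is a textbook target of cyclic AMP signalling, and insulin lowers its transcription.

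The genes lie on different chromosomes, with positions from the RefSeq annotation of Sscrofa11.1, the build named for the deposited values. HK2 (ENSSSCG00000008261) spans chr3:68155656-68231187 on the minus strand with 18 exons, and TKT (ENSSSCG00000021408) spans chr13:35348921-35377518 on the minus strand with 15 exons. TALDO1 (ENSSSCG00000012847) spans chr2:464781-472836 on the plus strand with 8 exons, and PCK1 (ENSSSCG00000007507) spans chr17:57930507-57936523 on the plus strand with 10 exons. The TALDO1 exons overlap those of GATD1 on the opposite strand by 71 bases, and the authors' mean of GATD1 over the 8 pigs was 42.2 normalized counts against 7886 for TALDO1. The exons of the other 3 genes overlap no annotated exon of the opposite strand, although a non-coding gene (LOC110257401) lies 118 bases from PCK1. The libraries were stranded, but the strand setting of the counting is not given in the sources used here, so that reads of overlapping partners could not be told apart.

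The 250 bases before the annotated start are shown for 3 members, to let TKT and TALDO1, both higher in AL, be set beside PCK1. Their annotated start lies 131 (TKT), 37 (TALDO1) and 410 (PCK1) bases of the genome before the coding sequence. HK2, also higher in AL, is left out because its annotated transcript begins 4 bases before the coding sequence, so the window before it may hold leader sequence. The windows are chr13:35377519-35377768 (minus strand) for TKT, chr2:464531-464780 (plus strand) for TALDO1 and chr17:57930257-57930506 (plus strand) for PCK1, each written from 5′ to 3′ in the direction of transcription. Capitals mark matches on either strand to any of 6 motifs. These were the E-box CACGTG, as found in carbohydrate response elements, and TGACGTCA, the palindromic form of the cyclic AMP response element. The others were GGGCGG, known as the GC box, the pentamer CCAAT of many promoters, TATAAA as the core of the TATA box, and TTNNGCAA as a core bound by C/EBP factors.
TKT: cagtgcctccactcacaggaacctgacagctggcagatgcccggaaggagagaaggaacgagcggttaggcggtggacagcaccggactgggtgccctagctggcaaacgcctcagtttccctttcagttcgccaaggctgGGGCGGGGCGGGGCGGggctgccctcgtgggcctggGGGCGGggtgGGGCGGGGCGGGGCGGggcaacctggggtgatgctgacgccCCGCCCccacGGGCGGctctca
TALDO1: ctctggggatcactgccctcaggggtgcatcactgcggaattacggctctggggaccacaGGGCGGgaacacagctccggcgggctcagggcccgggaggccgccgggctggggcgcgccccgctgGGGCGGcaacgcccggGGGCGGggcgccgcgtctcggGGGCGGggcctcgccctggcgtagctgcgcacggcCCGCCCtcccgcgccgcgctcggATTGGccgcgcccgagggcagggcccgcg
PCK1: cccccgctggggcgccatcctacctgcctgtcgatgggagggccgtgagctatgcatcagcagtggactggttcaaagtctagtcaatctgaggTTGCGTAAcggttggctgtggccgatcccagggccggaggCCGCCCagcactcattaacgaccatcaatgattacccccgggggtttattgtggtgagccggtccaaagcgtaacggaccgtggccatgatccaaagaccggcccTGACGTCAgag

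The TKT window held 9 matches to the GC box, some of them sharing a base, and none to the other 5 motifs. The TALDO1 window held 5 matches to the GC box and 1 to the CCAAT pentamer, which ends 25 bases before the start. The PCK1 window held 1 match to the cyclic AMP response element, with its last base 4 bases before the annotated start, 1 to the C/EBP core, with its last base 149 bases before it, and 1 to the GC box. The E-box was in none of these 3 windows. Of 19556 windows of the same length, one per annotated gene, 45.9% held the GC box and 31.9% the CCAAT pentamer, 9.77% the TATA core, 8.22% the C/EBP core, 6.39% the E-box and 1.70% the cyclic AMP response element. The GC content was 71.2% for TKT, 80.0% for TALDO1 and 60.4% for PCK1, against a median of 57.6% over all windows. A match is a run of letters and not a measured binding site.

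All values per pig are normalized counts, which are gene counts divided by a scaling factor of the library, as deposited. Each value was a whole multiple of 1 step in its pig, within a tolerance of 0.05 of a step, and this step was taken as 1 read. A stricter check of the low values accepted this for only 3 of the 8 pigs, so read numbers and their intervals are estimates and no count model was run. Between 359708 and 883622 reads per pig fell on the 458 genes, and intervals or limits from reads cover counting error only. Differences between breeds are given as the difference of the mean log2(normalized count + 1), AL minus BI, which understates changes of genes with few counts. For single genes, an exact permutation p (two-sided) was taken from all 70 ways to divide 8 pigs into 4 and 4, where the smallest p possible is 0.029 and is reached only where the breeds do not overlap. With 1 pig left out there are 35 ways, and p can then exceed 0.029 although the breeds do not overlap. The 458 genes are those that the authors had already called different between the breeds, so these tests describe how far the pigs stand apart and are not independent evidence of a difference.

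HK2, TKT and TALDO1 were higher in AL, with every AL pig above every BI pig, and PCK1 had the lower mean in AL, with overlapping breeds. Thus 3 of the 4 members did not overlap, all 3 higher in AL, beside 79.5% of the 458 genes without overlap in either direction, 48.3% higher in AL and 31.2% higher in BI. In a limma fit over all 458 genes, all 4 members passed an adjusted p of 0.05, as did 99.6% of the genes. Neither share sets the members apart from the other genes of the table. In bulk fat, fewer cells of a type and less RNA per cell cannot be told apart, for these and all later values.

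**Figure D1:**
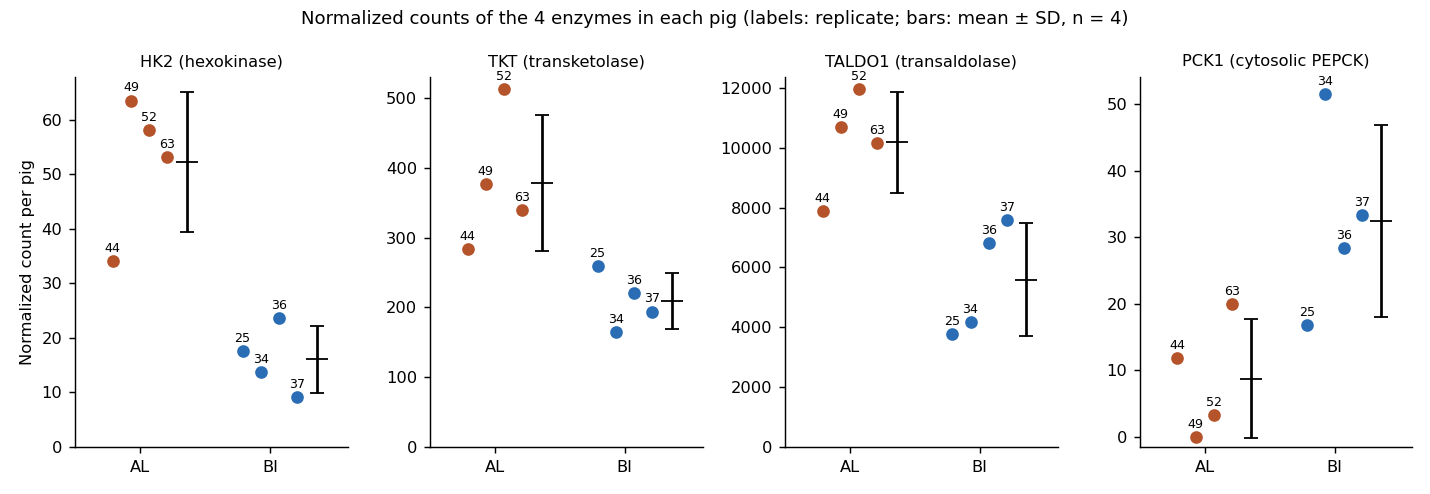
Normalized count of each enzyme (vertical axis, linear, a separate scale for each gene) in each of the 4 AL and 4 BI pigs, with replicate numbers beside the points and bars for the mean ± SD (n = 4). The AL and BI points are separated for HK2, TKT and TALDO1, closest for TALDO1 (7898 in AL replicate 44 and 7583 in BI replicate 37), and overlap for PCK1.

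HK2, the hexokinase of glucose entry, had 34.1 normalized counts in AL replicate 44, 63.5 in 49, 58.1 in 52 and 53.1 in 63. In BI it had 17.6 in replicate 25, 13.7 in 34, 23.6 in 36 and 9.17 in 37. The breeds were apart, and the lowest AL pig (replicate 44) lay 1.44-fold above the highest BI pig (replicate 36). The mean was 52.2 ± 12.8 in AL and 16.0 ± 6.12 in BI (SD, n = 4), which is 3.26-fold higher in AL. The log2 difference was 1.68 (standard error 0.33; exact permutation p = 0.029), and limma gave a 95% interval of 0.91 to 2.45 with an adjusted p of 0.00298. These values rest on few reads, between 23 and 70 in the AL pigs and between 11 and 25 in the BI pigs. The exact Poisson interval of AL replicate 44 (21.6 to 51.1) overlaps that of BI replicate 36 (15.3 to 34.9), so the order of these 2 pigs is within counting error. Among the 263 genes with a higher log2 mean in AL, 41 (15.6%) had a larger log2 difference than HK2.

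TKT, the transketolase that moves a 2-carbon unit between sugar phosphates, had 284 normalized counts in AL replicate 44, 377 in 49, 513 in 52 and 340.0 in 63. In BI it had 259 in replicate 25, 165 in 34, 220.1 in 36 and 194 in 37. No BI pig reached the lowest AL pig, but AL replicate 44 was only 1.10-fold above BI replicate 25. The mean was 379 ± 97.3 in AL and 209.6 ± 40.1 in BI (SD, n = 4), which is 1.81-fold higher in AL, with a log2 difference of 0.84 (standard error 0.22; exact permutation p = 0.029). In limma the 95% interval was 0.30 to 1.37 and the adjusted p was 0.0071. This was one of the smaller differences of the table, since 85.9% of the genes with a higher log2 mean in AL had a larger one.

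TALDO1, the transaldolase that works beside TKT in the same branch, had the highest counts of the enzymes. It had 7898 normalized counts in AL replicate 44, 10713 in 49, 11953 in 52 and 10166 in 63. In BI it had 3784 in replicate 25, 4183 in 34, 6807 in 36 and 7583 in 37. The BI pigs fell into a lower pair (25 and 34) and a higher pair (36 and 37), and the highest BI pig came within 1.04-fold of the lowest AL pig. The mean was 10183 ± 1696 in AL and 5589 ± 1888 in BI (SD, n = 4), which is 1.82-fold higher in AL, with a log2 difference of 0.91 (standard error 0.28; exact permutation p = 0.029). In limma the 95% interval was 0.33 to 1.49 and the adjusted p was 0.00695. With 4948 to 11814 reads per pig, counting error was small, and the intervals of the nearest pigs (7688 to 8113 in AL replicate 44, 7428 to 7740 in BI replicate 37) overlapped only between 7688 and 7740.

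PCK1, the glyceroneogenic enzyme, had 11.9 normalized counts in AL replicate 44, 0 in 49, 3.23 in 52 and 19.9 in 63. In BI it had 16.8 in replicate 25, 51.5 in 34, 28.3 in 36 and 33.3 in 37. AL replicate 63 lay above BI replicate 25, and the other 3 AL pigs lay below every BI pig. The count of 0 in AL replicate 49 allows a level of up to 2.72 normalized counts, which is 3 reads in that library (a one-sided limit), and the exact two-sided Poisson interval used for the other pigs reaches 3.35. The mean was 8.75 ± 8.97 in AL and 32.5 ± 14.4 in BI (SD, n = 4), so that the AL mean was 0.269 of the BI mean. The log2 difference was -2.42 (standard error 1.03), and the exact permutation test did not pass (p = 0.057), whereas limma, which shares the spread over all 458 genes, gave a 95% interval of -4.04 to -0.81 and an adjusted p of 0.00814. Only 3 of the 195 genes with a higher log2 mean in BI (1.54%) had a larger difference on this scale, on which the pig at 0 weighs heavily. The log2 difference was -3.34 with a pseudocount of 0.1 and -1.25 with 10, each with an exact permutation p of 0.057. The log2 ratio of the breed means was -1.89, and no test was run on it. The reads were few, between 0 and 15 in AL and between 22 and 75 in BI. Without AL replicate 49 the log2 difference was -1.58, and without AL replicate 63 it was -3.04 with separated breeds (exact permutation p = 0.029).

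Leaving out 1 pig at a time left the direction of the other 3 members in place. For HK2 every such log2 difference, 1.46 to 1.88, passed the exact permutation test. For TKT the range was 0.68 to 0.96, and p rose to 0.057 without AL replicate 52 (0.68) or without BI replicate 34 (0.73), 36 (0.87) or 37 (0.81). For TALDO1 it was 0.75 to 1.08, and p rose to 0.057 without any single AL pig (0.83 to 1.03) and without BI replicate 25 (0.75) or 34 (0.80). All 3 genes still had separated breeds in each of these subsets, because leaving out a pig cannot make separated breeds overlap. Their kept direction was likewise fixed by the separation.

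The same AL pig, replicate 44, was the lowest of its breed for HK2, TKT and TALDO1. It was also the lowest AL pig in 35.7% of the 263 genes with a higher log2 mean in AL, where replicate 52 was lowest in 39.9%. BI replicate 37 was the highest BI pig for TALDO1 but the lowest for HK2, and it was the highest in 59.7% of those genes. For PCK1 the lowest AL pig was replicate 49, which was the lowest in 36.4% of the 195 genes with a higher log2 mean in BI.

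In the ratio of a pair of enzymes within a pig the scaling of the library cancels, except through the pseudocount of 1, which bears most on PCK1 with its few reads. Of the 6 possible pairs, the log2 ratio differed between the breeds without overlap for 4. The HK2 to PCK1 ratio of normalized counts was 2.88 in AL replicate 44, 18.0 in 52 and 2.67 in 63, with no PCK1 read in 49, and was 1.05 in BI replicate 25, 0.267 in 34, 0.833 in 36 and 0.275 in 37. HK2 thus exceeded PCK1 in every AL pig, while PCK1 exceeded HK2 in 3 of the 4 BI pigs. The log2 ratio of HK2 to PCK1 was 4.10 higher in AL (standard error 1.21), that of TKT to PCK1 3.26 (1.16) and that of TALDO1 to PCK1 3.34 (1.10). Each had an exact permutation p of 0.029, or 0.043 after Benjamini-Hochberg adjustment over the 6 pairs. The members were among genes already called different, PCK1 in the opposite direction to the others. A breed difference in these 3 ratios was thus largely set by that choice and is not independent evidence. The 3 ratios also share PCK1 and are not separate results. With a pseudocount of 0.1 these differences were 5.08, 4.18 and 4.25, and with 10 they were 2.51, 2.06 and 2.16 (exact permutation p = 0.029 for each), so their size depends on the pseudocount. With 1 pig left out the breeds stayed apart in these 3 ratios, as they must, but the exact permutation test of 3 against 4 pigs lost calls. The HK2 to PCK1 ratio lost its call without BI replicate 34 (3.81) or 37 (3.83), the TKT to PCK1 ratio without AL replicate 49 (2.41) or BI replicate 25 (3.64), 34 (2.90), 36 (3.32) or 37 (3.18), and the TALDO1 to PCK1 ratio without BI replicate 25 (3.44), 34 (2.97), 36 (3.48) or 37 (3.46).

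Within the enzymes that were higher in AL, HK2 rose more than TKT. The log2 ratio of HK2 to TKT was 0.84 higher in AL (standard error 0.27; exact permutation p = 0.029, adjusted p = 0.043), with AL pigs from -3.12 to -2.55 and BI pigs from -4.26 to -3.17. The lowest AL and the highest BI pig were close, and with a pseudocount of 10 the difference was 0.45 (exact permutation p = 0.11). With 1 pig left out, the exact permutation p of the HK2 to TKT ratio rose to 0.057 without any single AL pig (0.75 to 0.94) or without BI replicate 37 (0.65). The breeds stayed apart in these subsets, as they must. The log2 ratio of HK2 to TALDO1 was 0.77 higher in AL (standard error 0.42) with overlapping breeds and did not pass (exact permutation p = 0.057, adjusted p = 0.069).

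TKT and TALDO1, which act in one branch, had log2 ratios that differed between the breeds by -0.08 (standard error 0.31; exact permutation p = 0.83, adjusted p = 0.83). With 4 pigs per breed this does not show that the enzymes moved alike. Their ratio was steadier among the AL pigs, where TALDO1 had 23.3 to 29.9 times the normalized counts of TKT, than among the BI pigs, where it had 14.6 times in replicate 25, 25.4 in 34, 30.9 in 36 and 39.1 in 37. The difference in spread was not tested.

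**Figure D2:**
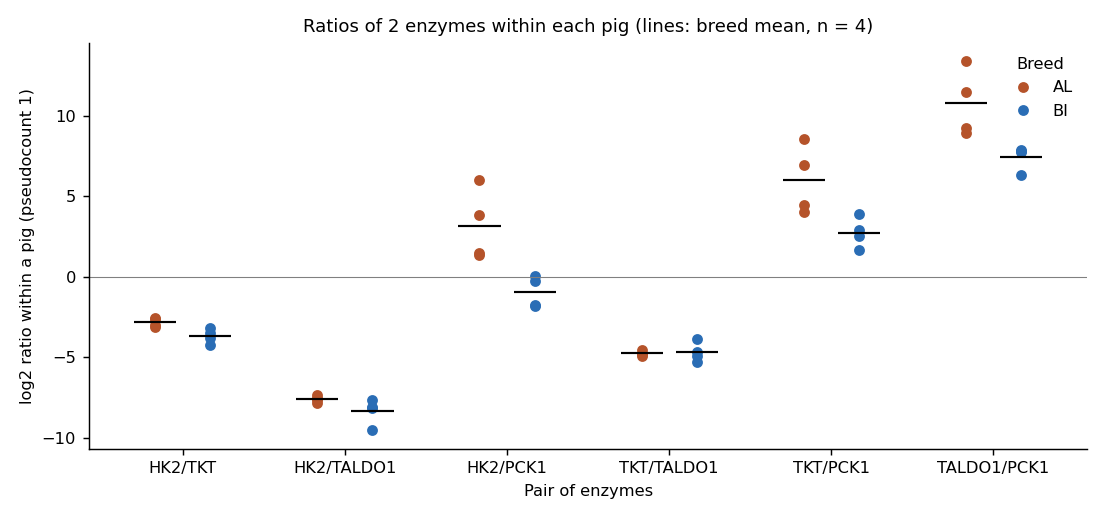
Log2 ratio of 2 enzymes within each pig (vertical axis, pseudocount 1) for the 6 pairs, with 1 point per pig, AL beside BI, and a line at each breed mean (n = 4). The 3 ratios to PCK1 and HK2/TKT have separated breeds, while TKT/TALDO1 ranges from -4.90 to -4.54 in AL and from -5.28 to -3.86 in BI.

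The size of the breed difference depended on how the libraries were scaled. When the 458 genes were rescaled to a median of ratios, the median log2 difference over all of them shifted by -0.51, and with upper quartiles by -0.64. The number of genes without overlap went from 364 (221 higher in AL, 143 in BI) to 273 (102 and 171) and 236 (60 and 176). Under these scalings the log2 difference of HK2 was 1.18 (exact permutation p = 0.029) and 1.06 (p = 0.057), that of TKT 0.32 and 0.19 and that of TALDO1 0.40 and 0.27, both without a call (p from 0.11 to 0.54). PCK1 reached -2.83 and -2.95 with separated breeds (exact permutation p = 0.029 for each). The directions of the 4 members held under both scalings. Relative to the shift, the differences were 1.69 for HK2, 0.83 for TKT, 0.91 for TALDO1 and -2.32 for PCK1 under the median of ratios. Taking off the shift nearly undoes the rescaling, so these values restate the reported differences and are no separate check. The 458 genes were chosen for a breed difference and lean towards AL, so these scalings are not neutral.

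Markers of adipocytes and of other cell types were looked up in the samples. Of 15 adipocyte markers listed, 13 were in the table of authors' means over the 8 pigs, from 10.9 for PPARG to 1567 for PLIN1, with ADIPOQ at 173. Of the lists for other cell types, the same table held 7 of 12 macrophage and other leukocyte, 6 of 9 endothelial, 7 of 10 fibroblast and preadipocyte, 5 of 12 skeletal muscle and 2 of 4 erythroid markers, and only MYH7 of these had values per pig. Authors' means went from 3.87 (AIF1) to 1385 (CSF1R) for leukocytes and from 4.08 (TEK) to 1085 (ENG) for endothelium. For fibroblasts they went from 3.43 (PI16) to 2188 (COL1A1), above PLIN1, so these means do not establish which cell type prevailed. Of the muscle markers, CKM, the muscle creatine kinase, had a pooled mean of 987, MYH7 of 14.5, TNNT3 of 4.49 and DES of 3.07, with ACTA1 between MYH7 and TNNT3. The adipocyte markers LEP, FABP4 and CEBPA had values per pig, and their sum was 1080 to 1501 in AL and 523 to 755 in BI. They are in the table of values per pig because the authors had called them different, as the members are. FABP4 was the largest part of the sum, with a mean of 909 normalized counts in AL and 436 in BI. The other adipocyte markers, ADIPOQ included, had only a pooled mean, so their breed difference was not analysed here. The paper reports ADIPOQ as numerically higher in BI, without a significant difference, which is opposite to the markers in the sum. The sum therefore does not stand for the whole list. MYH7, a skeletal muscle myosin, was at 0.907 to 9.30 in AL and 4.72 to 40.5 in BI.

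Dividing by this marker sum lowers the AL minus BI difference of every gene by the same amount. This is because the sum of LEP, FABP4 and CEBPA is itself higher in AL, so the values are a description with no test. Relative to the sum, the log2 difference was 0.60 for HK2 (standard error 0.43), -0.24 for TKT (0.27) and -0.16 for TALDO1 (0.24), with overlapping breeds for each. PCK1 stood at -3.50 (0.98) without overlap. The division was chosen after the values were seen, and the part of the adipocyte markers in the results was not tested.

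**Figure D3:**
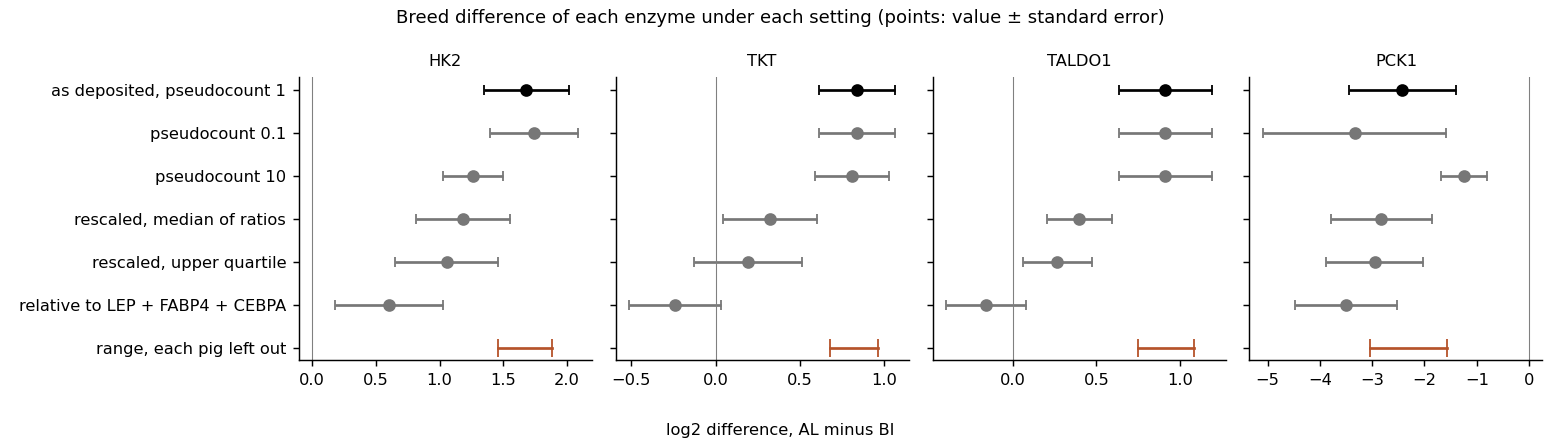
Log2 difference of each enzyme (horizontal axis, AL minus BI, a separate scale for each gene) as reported, with other pseudocounts, with both rescalings and relative to the sum of LEP, FABP4 and CEBPA, as points with standard errors; the lowest line is the range with each pig left out. HK2 stays above 0 and PCK1 below 0 throughout, while TKT and TALDO1 go from 0.84 and 0.91 as reported to -0.24 and -0.16 relative to the marker sum.

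To compare levels between genes, normalized counts were divided by the RefSeq exon length (3117 bases for HK2, 2229 for TKT, 1216 for TALDO1 and 2639 for PCK1). The level of TALDO1 per kb was 8374 ± 1395 in AL and 4596 ± 1553 in BI (SD, n = 4), and that of TKT was 170 ± 43.6 in AL and 74.0 to 116 in BI. HK2 had 16.7 ± 4.10 per kb in AL and 5.14 ± 1.96 in BI, and PCK1 had a mean of 3.32 in AL and 12.3 ± 5.47 in BI. TALDO1 was above TKT and TKT above both others in every pig. In AL the level of HK2 (10.9 to 20.4 per kb) did not overlap that of PCK1 (0 to 7.55), and in BI both ranges overlapped (2.94 to 7.58 for HK2, 6.37 to 19.5 for PCK1).

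Among the other genes of these pathways, breed differences were computed only for the few with values per pig. The authors' own fold changes, which were deposited for the others too, were not used. Levels come only from the authors' mean over the 8 pigs. By that mean per kb, TALDO1 (6485) and TKT (132) ranked 1 and 2 of 9 pentose phosphate genes, with TALDO1 at 49.1 times TKT. PGD, a dehydrogenase of the oxidative branch, had 23.9. HK2 (10.9) ranked 15 of 26 genes of glucose uptake and glycolysis and was level with HK1 (10.9), the hexokinase of most tissues, while the insulin-responsive glucose transporter SLC2A4 had 6.30. PCK1 (7.82) ranked 7 of 12 genes of glyceroneogenesis, gluconeogenesis and glycerol phosphate. PC, the pyruvate carboxylase that feeds oxaloacetate to PCK1, had 113 per kb, and GPD1, which forms glycerol 3-phosphate from dihydroxyacetone phosphate, had 19.9. The order rests on RefSeq exons, which may differ from the gene models used for counting. It also takes the reads counted for a gene as its own RNA. With the strand setting of the counting not given, this was not tested for TALDO1, the other members or the other genes.

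**Figure D4:**
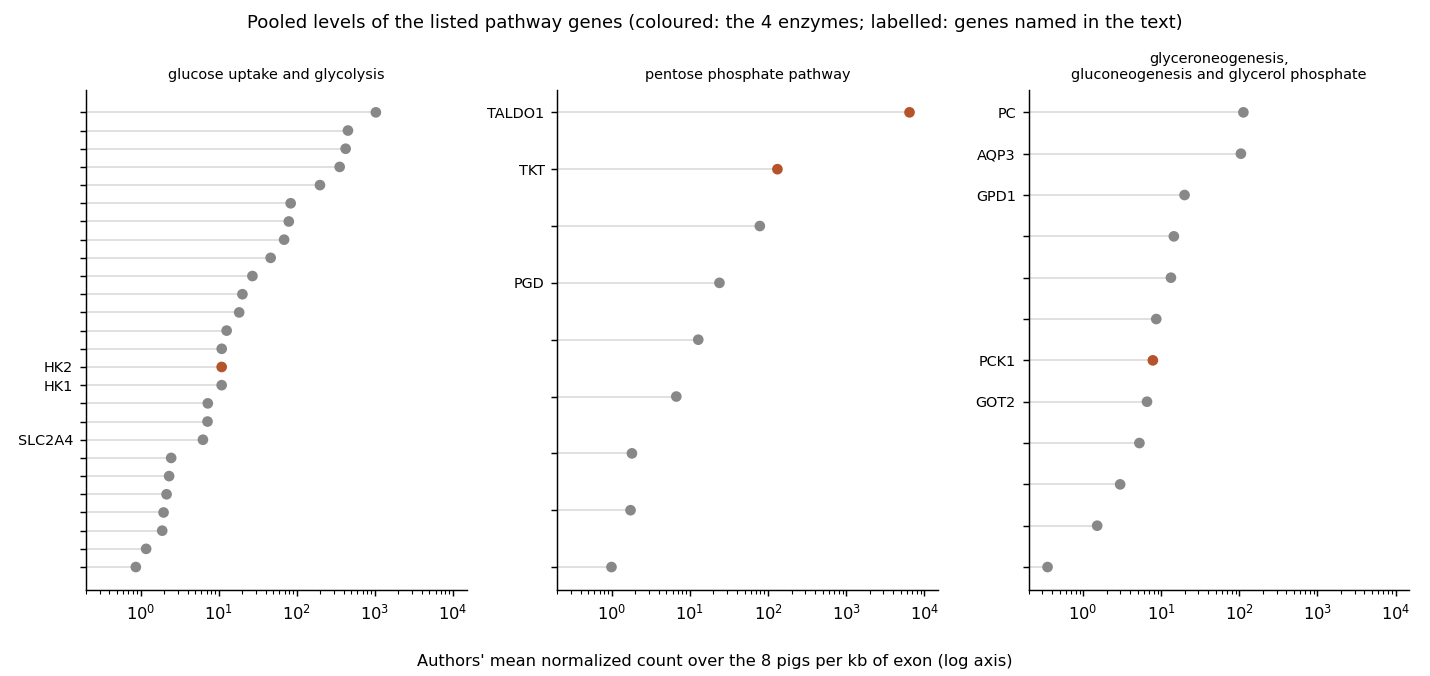
Authors' mean normalized count over the 8 pigs per kb of exon (horizontal axis, log scale) for the genes of 3 pathway lists, with the members coloured, only the genes named in the text labelled, and no error shown because only the pooled mean was used. TALDO1 (6485) and TKT (132) lead the pentose phosphate list, and HK2 (10.9) and PCK1 (7.82) lie in the middle of theirs.

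The 8 pathway lists held 133 genes, of which 97 had a pooled mean and 13 had values per pig, the 4 members included. Of the other 9, 5 were higher in AL and 1 in BI without overlap, and 3 overlapped, beside 79.5% of all 458 genes without overlap. Their median log2 difference was 1.33, against 0.83 over all 458 genes and 1.09 over the 263 with a higher log2 mean in AL. HK2 was the single gene of 34 in the list of glucose uptake and glycolysis with values per pig, and TKT and TALDO1 were the 2 of 15 pentose phosphate genes. PGD, which forms NADPH in that pathway, had no values per pig, so its breed difference was not analysed here. The lists for pyruvate entry and for triglyceride assembly and lipolysis had no gene with values per pig.

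Close to PCK1 in its pathway, GOT2, the mitochondrial aspartate aminotransferase, had 24.2 ± 5.02 normalized counts in AL and 9.08 ± 1.42 in BI (SD, n = 4) without overlap, a log2 difference of 1.31 (standard error 0.18; exact permutation p = 0.029). Both GOT2 means were below those of HK2, which itself rests on few reads. With upper-quartile rescaling the GOT2 difference was 0.71 (exact permutation p = 0.057). AQP3, an aquaglyceroporin that passes glycerol through the membrane, went the other way, with 30.8 to 68.1 in AL and 72.8 to 201 in BI (-1.32, standard error 0.44; exact permutation p = 0.029). Among the 13 pathway genes with values per pig, PCK1 and AQP3 were those with a lower mean in AL, and AQP3 the one whose breeds were apart. GYS1, the glycogen synthase of muscle and other tissues outside the liver, overlapped (0.98, standard error 0.34, exact permutation p = 0.057). Its authors' mean was unusually high, at 148289 normalized counts, rank 3 of 10710 genes and 317 times TKT per kb. Exon overlap with genes of the opposite strand was looked up for the members only. Whether the reads counted for GYS1 came from that gene was not tested, so its values may not describe glycogen synthase RNA.

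On the side of NADPH use and supply in lipogenesis, the log2 difference was 2.05 for ME1, the malic enzyme that forms NADPH, 1.86 for FASN, the fatty acid synthase that consumes it, 2.79 for SCD, the stearoyl-CoA desaturase, and 1.33 for ELOVL6, a fatty acid elongase, all without overlap (exact permutation p = 0.029 each). ACLY, which makes cytosolic acetyl-CoA, was at 1.96 and the transcription factor CEBPA at 0.95, both with overlap (exact permutation p = 0.057 each). HK2 (1.68) lay within the range of these lipogenic genes, and TKT (0.84) and TALDO1 (0.91) below each of them.

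**Figure D5:**
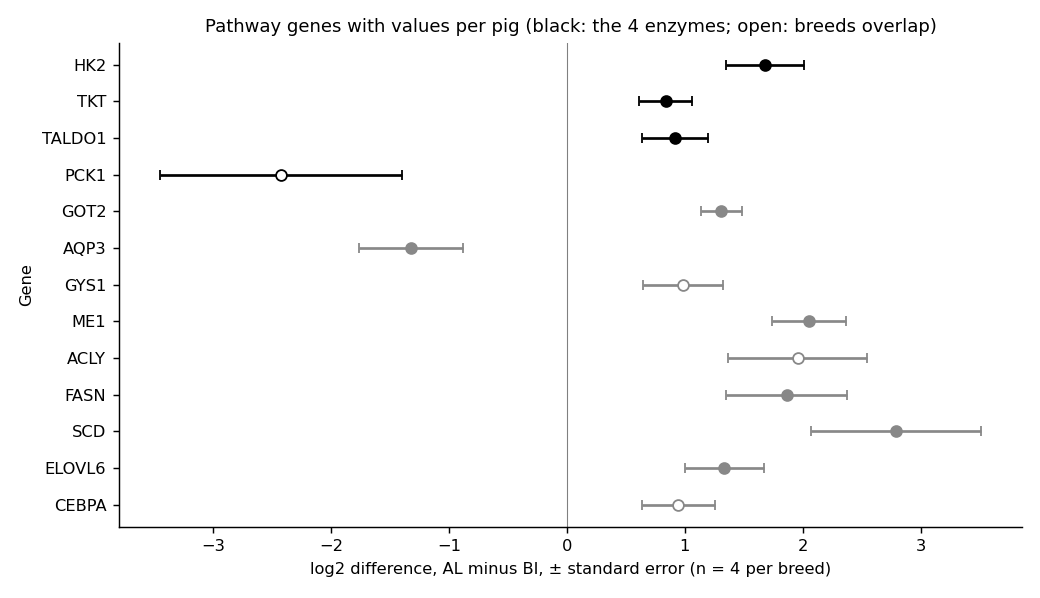
Log2 difference (horizontal axis, AL minus BI, ± standard error, n = 4 per breed) of the 13 pathway genes with values per pig, the members in black and genes with overlapping breeds as open points. Only PCK1 (-2.42) and AQP3 (-1.32) lie left of 0, and TKT (0.84) and TALDO1 (0.91) have the smallest differences.

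The genes with the most similar profile over the 8 pigs were found by the root mean square difference of log2 values centred on each gene's mean. For HK2 these were ME1 (0.35), the axonemal dynein gene DNAI1 (0.43) and the DNA glycosylase gene MUTYH (0.43), against a median of 0.88 over the other genes. For TKT they were STYXL1 (0.11), the zinc finger factor YY1 (0.22) and RAI1 (0.23), against a median of 0.82. For TALDO1 they were SMPD5 (0.11), LOC100525027 (0.12) and LRRC25 (0.13), against 0.75. TALDO1 lay at 0.38 from TKT and 0.64 from HK2, and HK2 at 0.54 from TKT, so that no member was among the 3 nearest of another. For PCK1 the nearest were ATF3 (0.79) and CSRNP1 (0.80), both transcription factors of the early response to stimuli, and the small nuclear RNA U5 (0.88), against a median of 2.04. The nearest genes of PCK1 were thus much farther from it than those of TKT and TALDO1 were from them, and the reads behind its profile were few.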

How the data were processed

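RNA-seq libraries of 4 AL and 4 BI pigs were compared, grouped by the breed in the labels. Per the submitters' processing notes, Trim Galore 0.5.0, HISAT2 2.1.0, SAMtools 1.9, HTSeq 0.11.1 and DESeq2 were used with Sscrofa11.1, and a read minimum per group was applied by the authors. The expression signal of each pig, deposited by the authors, is the gene count after division by DESeq2's size factor for the library, for the 458 genes they called different between the breeds, 411 of them with a gene name. A second table lists, for 10710 genes, this signal averaged over the 8 pigs, and 8923 of their identifiers were matched to symbols. Both tables also hold the authors' own fold changes, standard errors and p-values, which were not used.

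For every gene with values per pig, the difference of mean log2(value + 1), its standard error, an exact permutation p (two-sided) and limma 3.58.1 (R 4.3.3, with trend, Benjamini-Hochberg adjustment over 458 genes) were computed, with Python 3.11.15, NumPy 2.4.6, pandas 2.3.3, SciPy 1.17.1, pysam 0.24.0 and Matplotlib 3.10.9. Nothing says that the pigs were independent of litter or batch beyond being separate animals, and 4 pigs per breed limit each mean. Genes named were the members, the genes of the pathway lists with values per pig and, for each member, the 3 genes nearest in profile. Other pathway genes in the comparison of pooled levels and the markers are named as background to these. The members and lists were chosen with earlier results of these data known. Alternatives were pseudocounts of 0.1 and 10, 2 rescalings, breed medians, the ratio of means, an exact rank-sum test, limma without trend or with a mean of at least 50, and leaving out each pig. For breed medians and the ratio of means no test was run, and the p of the log2 difference was carried over. The calculations were tested on simulated data for AL against BI with 458 genes, 200 of them changed by a log2 value of 2. The exact test passed 99% of the changed and 1.94% of the unchanged genes, and limma 100% and 1.55%. The simulation gave every gene the same spread beyond counting error, and its change was larger than that of HK2, TKT and TALDO1. These shares therefore test the calculations and do not give the power for the members. No replicate number is shared by the breeds, so no pairing was used. Values of a few single genes are not reported here. Sequences and positions are from RefSeq's Sscrofa11.1.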

Additional observations from a re-analysis of the deposited data

Results flagged for a closer look

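In a group of 4 pigs, a value was picked out where its gap to the nearest other pig, divided by the range of the group, exceeded Dixon's critical value of 0.829. Of 38 groups looked at, 6 were picked out, and chance alone does so for about 1 group in 20. For the members, this was the log2 ratio of TALDO1 to PCK1 in BI replicate 34, which was 6.32, below the other BI pigs at 7.73 to 7.86 (gap over range 0.917). The other cases were pathway genes. ME1 was lowest in AL replicate 44 with 44.4 normalized counts (0.939) and highest among the BI pigs in replicate 36 with 25.5 (0.879). ACLY had the same pigs, with 35.6 in AL replicate 44 (0.954) and 49.1 in BI replicate 36 (0.851). GYS1 was lowest in AL replicate 52 with 138340 (0.93).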

How the results depend on the processing

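Rescaling by upper quartiles reduced the log2 difference of HK2 to 1.06 (exact permutation p = 0.057), TKT to 0.19 and TALDO1 to 0.27, the members without overlap to 1 and the other pathway genes without overlap to 3. Median of ratios gave 0.32 for TKT and 0.40 for TALDO1. PCK1 became separated with both (-2.95 and -2.83) and passed in limma (-2.42, adjusted p = 0.00814, and 0.0122 without trend). Among genes averaging 50 normalized counts or more, limma called 295, since fewer were tested. Leaving out each pig gave 1.46 to 1.88 for HK2, 0.68 to 0.96 for TKT, 0.75 to 1.08 for TALDO1 and -3.04 to -1.58 for PCK1. It gave 3 to 4 members, 6 to 8 other pathway genes and 4 to 5 pair ratios without overlap, counts that cannot fall when a pig is left out. The log2 ratio of TKT to TALDO1 ranged from -0.28 without BI replicate 37 to 0.20, a reversed sign, without BI replicate 25 (exact permutation p = 0.34). Of the alternatives for the main results, 75 kept the direction and the side of the threshold, or a count within 1.5 times, 18 lost a call or over 1.5 times of a count, and 4 gained a call; for single genes and ratios, 125 kept both, 38 fell below and 4 passed. Part of the kept outcomes was fixed in advance. Breed medians and the ratio of means carried the p over. With a pig left out, counts without overlap could not fall and separated breeds kept their direction. The tally is therefore no measure of robustness, and the cause of the changes was not tested. The 2 planned count models on whole reads were not run. No paired analysis was possible because AL and BI pigs share no replicate number. Few reads limit HK2 and PCK1, and for all 4 genes the number of pigs limits the precision.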
